A study of Mus musculus with 6 samples.

Results

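The circles of the Cdr1as locus are the circular RNAs of the mouse X chromosome that are made from the plus strand around Cdr1as, the RNA transcribed antisense to the Cdr1 gene. They were chosen by position as the rows of the deposited table whose ends both lie in the interval from X 61175000 to X 61195000 on that strand. The interval held 4 of the 11171 circRNAs listed, namely mmu_circ_0011085, mmu_circ_0011083, mmu_circ_0011087 and mmu_circ_0011084, and all 4 are listed without a host gene. Levels were measured in cerebral cortex of 3 Control mice and 3 mice with pilocarpine-induced temporal lobe epilepsy (TLE), with 1 library per mouse. All were male C57BL/6 mice (C57BL/6J in the study's methods) aged 6 weeks. TLE mice had received scopolamine methyl bromide and then pilocarpine, their seizures were ended with diazepam, and cortex was taken 24 h after Status Epilepticus, whereas Control mice had received saline at each of these injections. The TLE group therefore differs from Control by every drug of the model and not by seizures alone.

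Cdr1as, also called ciRS-7, is a circular RNA of neurons that is closed by back-splicing, a reaction that ties the 3′ edge of an exon back to its 5′ edge. It carries many sites for the microRNA miR-7 and is bound through them by Argonaute proteins, and a further site for miR-671 allows the circle to be cut. The long noncoding RNA Cyrano, made from Oip5os1, belongs to the same network because it directs the destruction of miR-7. The libraries measured no microRNA.

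The main circle, mmu_circ_0011085, spans chrX:61183248-61186174 in build mm10 (GRCm38). In the GENCODE release M21 annotation this is exactly exon 6 of the 7 exons of transcript C230004F18Rik-206, 2927 nucleotides long. Its gene, C230004F18Rik (ENSMUSG00000071753.12), is a long intergenic noncoding RNA that RefSeq names Cdr1os. The protein-coding gene Cdr1 (ENSMUSG00000090546.2) lies on the opposite strand inside the circle, at chrX:61184005-61185558, opposite positions 758 to 2311 counted from the start of the circle. Both edges of the back-splice lie outside Cdr1. The second circle, mmu_circ_0011083, spans chrX:61181550-61186174 and shares the end of the main circle. Its start is the start of a 50-nucleotide exon of transcript C230004F18Rik-207. If both annotated exons are joined, this circle holds 2977 nucleotides, but junction reads do not show whether the 1698 bases before the main exon are spliced. The circle mmu_circ_0011087 starts 9 bases inside the main exon, at X 61183257, and has the same end. The circle mmu_circ_0011084 has the start of the second circle and ends at X 61187398, which is 1224 bases beyond the main exon and on no annotated exon boundary. In all 4 circles the bases ag stand before the start and gt after the end, the splice signals that the authors' caller requires.

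The junctions show how the 4 circles differ. Each line gives the last 20 bases before the back-splice in lower case and the first 20 bases after it in capitals, on the plus strand, read from the GENCODE transcripts.
mmu_circ_0011085: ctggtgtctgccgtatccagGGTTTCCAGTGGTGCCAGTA
mmu_circ_0011083: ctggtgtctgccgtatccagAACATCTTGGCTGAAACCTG
mmu_circ_0011087: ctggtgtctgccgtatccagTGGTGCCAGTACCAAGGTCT
mmu_circ_0011084: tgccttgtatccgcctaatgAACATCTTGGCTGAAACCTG
The first 3 junctions share the left side, and the starts of mmu_circ_0011083 and mmu_circ_0011084 share the right side. The stretch at chrX:61183228-61183287 shows the paired acceptors of the main circle and mmu_circ_0011087, with the 9 bases that only the longer circle keeps in capitals.
Acceptor region: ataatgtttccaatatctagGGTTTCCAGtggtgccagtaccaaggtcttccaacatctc
An ag precedes the capitals and another ends them, which are the bases before each of the 2 starts.

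The microRNAs of the network are shown because their seeds, bases 2 to 8, define the matches counted along the circle. The mature sequences are those of RefSeq for GRCm38.p6, with the seed in capitals.
mmu-miR-7a-5p: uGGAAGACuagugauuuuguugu
mmu-miR-7b-5p: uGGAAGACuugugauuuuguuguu
mmu-miR-671-5p: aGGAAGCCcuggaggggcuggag
The 2 forms of miR-7 share a seed, and its match in a target is GTCTTCC. The main circle held 123 such 7-base matches on its own strand and 0 on the opposite strand, which is 42.0 per kb. An A followed the match in 34 of the 123, and the shorter match TCTTCC, to bases 2 to 7, occurred 139 times. The matches ran from position 26 to position 2851, and together they made up 29.4% of the circle. Of the 122 distances between neighbouring matches, 86 were 18 nucleotides, 11 were 19 and 10 were 36, and the range was 17 to 109. The densest 300 bases, at chrX:61184474-61184773, are printed because this spacing can be read in them. They hold 17 matches, in capitals.
Densest 300 bases: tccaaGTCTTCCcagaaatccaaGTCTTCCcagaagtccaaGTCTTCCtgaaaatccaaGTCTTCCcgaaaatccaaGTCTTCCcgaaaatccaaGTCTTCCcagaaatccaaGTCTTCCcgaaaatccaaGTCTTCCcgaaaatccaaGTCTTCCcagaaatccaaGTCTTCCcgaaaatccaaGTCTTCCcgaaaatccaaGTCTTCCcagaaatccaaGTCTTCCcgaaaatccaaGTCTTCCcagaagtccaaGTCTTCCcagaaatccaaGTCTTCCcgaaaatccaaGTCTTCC

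The matches were spread over both parts of the circle, but their form differed along it. The stretch opposite Cdr1 makes up 53.1% of the circle and held 79 of the 123 matches. Before it lay 33 matches, and 28 of these were followed by A. Opposite Cdr1, 2 of the 79 were followed by A, and after it 4 of 11. Over the 23 bases of miR-7a-5p, without gaps or G-U pairs, the 123 windows paired at between 8 and 16 bases, with a median of 13. Bases 9, 10 and 11 of miR-7a-5p were all paired in 0 of the 123 windows.

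The match to the miR-671-5p seed, GGCTTCC, occurred once, at position 2797. The window around it, chrX:61186029-61186051, paired with miR-671-5p at 19 of 23 bases, bases 9 to 11 included. It is shown with 10 bases on either side and the paired bases in capitals.
miR-671-5p site: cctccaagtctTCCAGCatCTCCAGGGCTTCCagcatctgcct
A 6-base stretch of pairing on the left and 13 bases on the right are interrupted by 2 unpaired bases. Among windows that start more than 5 bases away from it, the best paired at 17 bases.

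**Figure D1:**
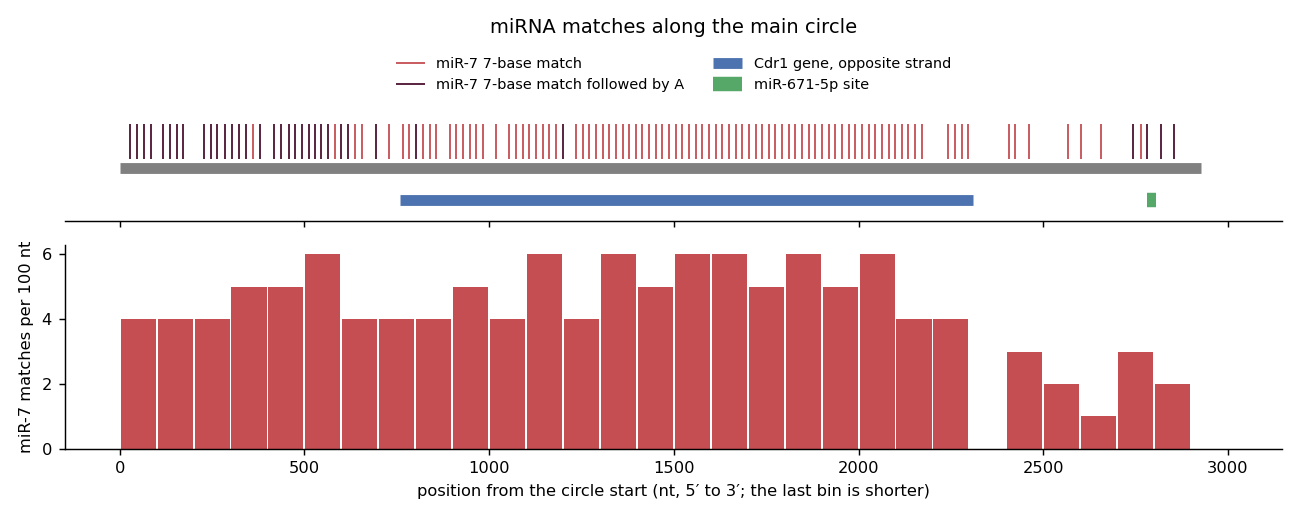
The upper panel marks each of the 123 miR-7 seed matches along the main circle, in nucleotides from its start, with darker lines for the 34 followed by A, the extent of Cdr1 on the opposite strand in blue and the miR-671-5p site in green. The lower panel counts the matches in each 100 nucleotides. Between 0 and 6 matches fall in each, and the darker lines sit mainly before the Cdr1 stretch.

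Among the seeds of the 1679 mature mouse microRNAs in the table, 1398 distinct 7-base sequences in all, that of miR-7 had the most matches in the main circle. The next were those of miR-7074-5p with 74 matches, miR-7685-3p with 56, the group of miR-3547-5p, miR-6368, miR-6404 and miR-6405 with 53, and miR-204-3p with miR-7684-5p with 43. These matches share bases with the repeated unit that holds the miR-7 match, so the counts are not separate from it. The seeds of miR-9-5p and miR-138-5p, compared as microRNAs of the brain, had 0 matches, as did 1327 of the 1398 seeds. The comparison was also planned for miR-124-3p and miR-145a-5p, but the microRNAs searched included neither, so they were not counted.

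By this count the main circle stood apart from the circles outside its locus that could be placed on annotated transcripts. An annotated transcript with both ends as exon boundaries was found for 9302 of the 11171 circRNAs, which carried 88.2% of the circRNA signal in SRPBM, back-splice reads scaled to the mapped reads of the library. Of the 9301 placed circles other than the main one, 641 (6.89%) held at least 1 miR-7 match. Over all of them there were 0.105 matches per kb, the 123 matches of mmu_circ_0011086 included. The only other placed circle with more than 4 was mmu_circ_0011086, which starts where the main circle starts and contains its exon. After it came 2 circles of Dym with 4 matches each. Of the annotated transcripts of other genes, 141767 searched in all with those of C230004F18Rik, the highest count was 11, in Ttn-203, which is 106824 nucleotides long. When each match was weighted by the mean level of its circle, the main circle held 99.2% of the miR-7 matches in the placed circles. These figures follow from sequence and level alone. The minor circles of the locus, mmu_circ_0011083, mmu_circ_0011087 and mmu_circ_0011084, have no single annotated transcript with both ends and were not placed. The extent of each includes every miR-7 match of the main circle.

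**Figure D2:**
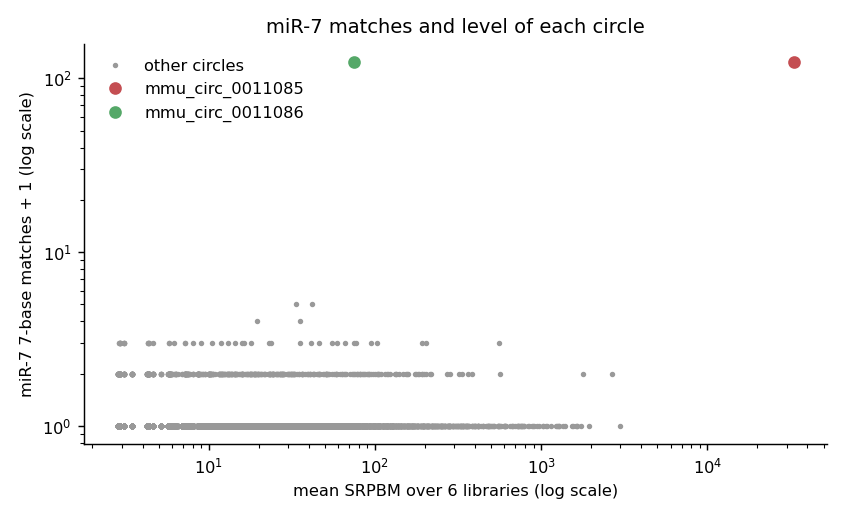
Each point is 1 of the 9302 placed circles, with its mean level in SRPBM over the 6 libraries and its number of miR-7 matches plus 1, both on log scales. The main circle lies alone at the top right, mmu_circ_0011086 is as high but at a mean of 74.5 SRPBM, and the other placed circles have at most 4 matches.

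An SRPBM value counts reads across the back-splice and is not divided by the length of the circle. One junction read was worth between 8.55 and 10.3 SRPBM, and the libraries held between 32504 and 56516 junction reads, with the lowest and the highest in the TLE group. No value above 0 corresponded to fewer than 2 reads, so a listed 0 can also be a junction with a read that the authors' filters removed. The labelled tissue was checked by the hosts listed for the circles. Of 8 neuronal hosts 5 had circles, with summed levels of 3598 to 4031 SRPBM in Control and 4142 to 5443 SRPBM in TLE. The neuronal hosts Rims1, Camk2a and Snap25 had none listed under their names, and neither had the 4 hosts of muscle and liver. Circles listed without a host could not be counted here, so a gene without a listed circle can still have circles. Of 7 glial or endothelial hosts only Slc1a2 had circles, with 0 to 34.6 SRPBM in a library, so these hosts say little about such cells. In bulk cortex, fewer cells of a type and less RNA per cell cannot be told apart.

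The main circle was the most abundant circRNA of every library. Its levels were 31687, 28877 and 29519 SRPBM in Control 1, 2 and 3, and 32053, 34719 and 41335 SRPBM in TLE 1, 2 and 3. Between 3103 and 4777 junction reads supported it in a library, 22081 in all. All 3 TLE libraries lay above all 3 Control libraries, TLE 1 by the smallest margin and TLE 3 by the largest. The same order held for 8.94% of the 4271 circRNAs above 0 in at least 3 libraries.

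It held 9.02%, 8.73% and 8.20% of the summed SRPBM of Control 1, 2 and 3. The 95% Wilson intervals of these shares, which cover counting error only, were 8.74 to 9.30%, 8.44 to 9.02% and 7.94 to 8.47%. In TLE 1, 2 and 3 it held 9.55% (9.23 to 9.87%), 8.49% (8.24 to 8.74%) and 8.45% (8.23 to 8.68%). As a share the groups overlapped, with the highest value in TLE 1 and the lowest in Control 3.

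The distance to the next circle was large in every library. That circle was mmu_circ_0003712 throughout, at chr17:6137211-6139156, which is listed without a host and overlaps Tulp4, and its level of 4393 to 5529 SRPBM was exceeded by the main circle 6.11 to 7.48 times. Between 14 and 17 of the next highest circles had to be summed to reach the level of the main circle. By mean level the circles that followed were mmu_circ_0010875, on an unplaced scaffold, at 3508 SRPBM, one of Gigyf2 at 2991, one of Dtnb at 2669 and one of Ankib1 at 1937. On the X chromosome the main circle held between 86.5% and 87.8% of all circRNA signal in each library, and the 276 X-linked circRNAs outside the locus shared nearly all of the rest. The highest of these were circles of Smarca1 at a mean of 336 SRPBM, Aff2 at 188 and Cnksr2 at 154.

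The 3 minor circles were rare beside it. The second circle, mmu_circ_0011083, was listed at 188, 0 and 146 SRPBM in Control 1, 2 and 3. In TLE 1, 2 and 3 it had 331, 140 and 372 SRPBM. These are 22, 0 and 17 junction reads in Control and 32, 16 and 43 in TLE, so TLE 2 lay below 2 of the Control libraries and the groups overlapped. In the 5 libraries where it was listed, it reached between 0.404% and 1.03% of the level of the main circle. At its ratio in Control 1 and 3, 0.547%, about 17.0 reads would correspond to the main circle of Control 2, where 0 are listed. A true count of 0 allows up to 3 reads at the 95% level, or 27.9 SRPBM, in that library. Since no listed value was below 2 reads, the 0 can also hide a read, and the limit is then higher. Among the circles with at least 16 reads in the other 5 libraries, a limit chosen after this 0 was seen, 20 of 1397 cases over the 6 libraries were listed at 0, 4 of them in Control 2, counts that include the second circle itself. The part of read loss in this value was not tested.

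The circle mmu_circ_0011087 was listed at 27.9 SRPBM in Control 2, 17.2 in Control 3 and 26.0 in TLE 3, which are 3, 2 and 3 reads, and at 0 in the other 3 libraries. The circle mmu_circ_0011084 appeared in TLE 1 alone, with 2 reads. Over the locus, the 3 minor circles together made up between 0.0965% (Control 2) and 1.08% (TLE 1) of the summed level.

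**Figure D3:**
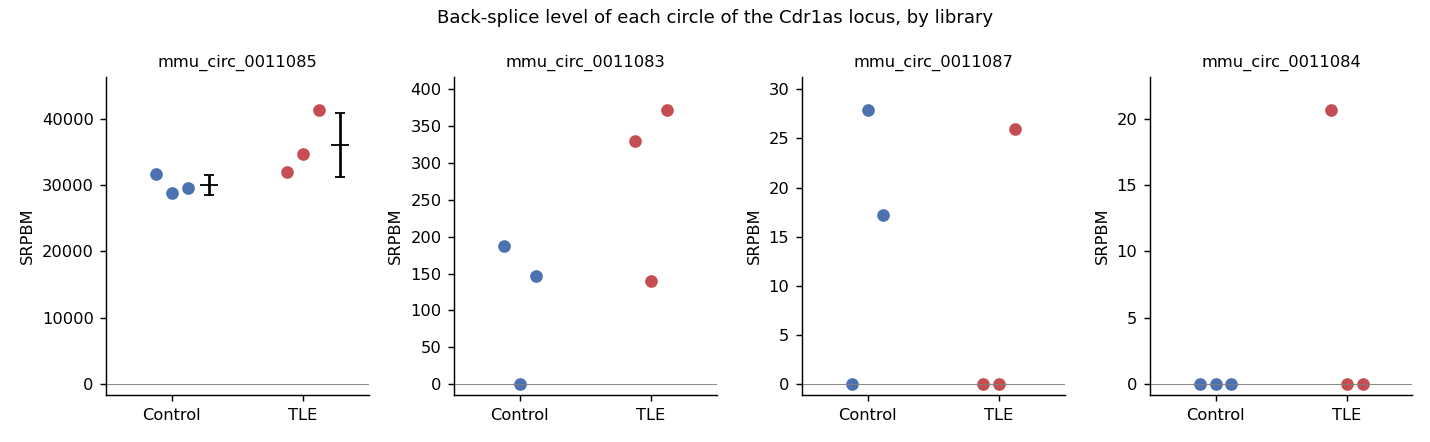
Each panel shows 1 circle of the locus in SRPBM, with a point per library and, for the main circle, the mean with its SD beside each group (n = 3). The scales differ: the main circle reaches 41335 SRPBM, the second 372, mmu_circ_0011087 27.9 and mmu_circ_0011084 20.7.

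A pair of circles fell just outside the rule. The circle mmu_circ_0011086 runs from the start of the main exon to X 61203785, the end of exon 7 of C230004F18Rik-206, and was excluded because that end lies beyond the interval. Its levels were 59.8, 27.9 and 51.7 SRPBM in Control and 72.3, 105 and 130 SRPBM in TLE, on 3 to 15 reads each. All TLE libraries lay above all Control libraries, as in 8.94% of the 4271 circRNAs above 0 in at least 3 libraries. The other, mmu_circ_0011088, lies on the minus strand at chrX:61185537-61185717, within the extent of the main circle and overlapping the edge of Cdr1, and was listed in TLE 1 alone, with 4 reads.

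Whether the locus differed between TLE and Control was tested on values as deposited and again after rescaling, because the summed SRPBM of all circRNAs was itself 347492 ± 14939 in Control and 411269 ± 76664 in TLE (SD, n = 3). These totals overlapped, since TLE 1 at 335753 SRPBM lay below Control 1 at 351493 and Control 3 at 360023. As deposited, the main circle had 30028 ± 1473 SRPBM in Control and 36036 ± 4779 SRPBM in TLE (SD, n = 3), a ratio of means of 1.20. The log2 fold change was 0.26 (SE 0.20), or 1.19-fold with a 95% interval of 0.890 to 1.60-fold, and it did not pass the test (limma across 4271 circRNAs, unadjusted p = 0.220, Benjamini-Hochberg adjusted p = 0.922). That unadjusted p depended on which circRNAs shared the variance trend and fell to 1.66e-06 in limma with no filter on low values, at the same fold change. The two-sided exact permutation test of the levels gave p = 0.1, the smallest that 3 libraries against 3 allow. Of the 4271 circRNAs tested, 8.94% likewise had every TLE library above every Control library, and the median log2 fold change of all of them was 0.17.

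Rescaling of every library to the same total SRPBM, which also takes out any difference shared by all circRNAs, removed most of the difference in the main circle. The main circle then had 32803 ± 1569 SRPBM in Control and 33496 ± 2358 SRPBM in TLE (SD, n = 3), and the groups overlapped. Its log2 fold change was 0.029 (SE 0.091), 1.02-fold with a 95% interval of 0.895 to 1.16-fold (limma, unadjusted p = 0.754, Benjamini-Hochberg adjusted p = 0.965). Since the main circle is itself part of the total, the libraries were also rescaled to the total of all other circRNAs, which gave 0.032, and by the median ratio over circles present in all libraries, which gave 0.052. After rescaling to the total, 5.08% of the circRNAs had every TLE library above every Control library, and the main circle was not among them. Without Control 3 or without TLE 1 the rescaled difference turned to -0.0088 and -0.029 on the log2 scale.

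As a share of the library, the main circle held 8.65 ± 0.414% in Control and 8.83 ± 0.622% in TLE (SD, n = 3). The difference of 0.183 percentage points was smaller than the spread in either group (two-sided exact permutation test, p = 0.7). With the locus left out of the denominator the difference was 0.225 percentage points (exact permutation test, p = 0.7).

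**Figure D4:**
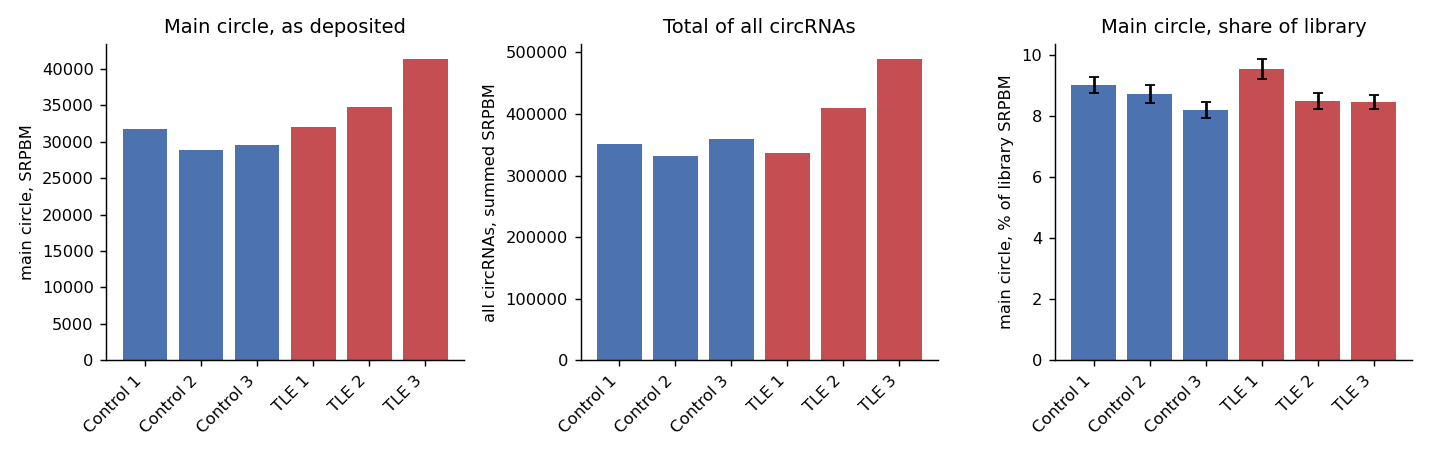
Bars give, for each library, the main circle in SRPBM as deposited, the summed SRPBM of all circRNAs, and the main circle as a percentage of that sum with 95% Wilson intervals. The first 2 panels both reach their highest value in TLE 3, and in the third the shares of the groups overlap between 8.20% and 9.55%.

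The spread of the main circle within a group was small. After rescaling, its coefficient of variation was 4.78% in Control and 7.04% in TLE, against counting errors of 1.45 to 1.80% for its reads. Of the 400 circles with the highest mean, 17 varied less than it in Control and 38 in TLE, and their median coefficients of variation were 18.1% and 20.7%. These circles rest on fewer reads, so the figures are a description.

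The second circle was higher in TLE by the rule of a log2 fold change of at least 1.5 with an unadjusted p under 0.05, but that call rested on the 0 listed in Control 2. Its log2 fold change was 1.74 (SE 0.67; 95% interval 0.32 to 3.16), on the scale of log2(SRPBM + 17.1) (limma, unadjusted p = 0.0195). By this rule 1.57% of the 4271 circRNAs were called, and no circRNA had a Benjamini-Hochberg adjusted p under 0.05 in limma, where 222 had an unadjusted p under 0.05 and that of the second circle was adjusted to 0.838. Without Control 2 the log2 fold change fell to 0.60 (limma, unadjusted p = 0.159). After rescaling to the same total it was 1.59 (limma, unadjusted p = 0.0202), where 1.45% of the circRNAs were called. As a share of the locus the second circle held 0.590%, 0% and 0.493% in Control 1, 2 and 3, and 1.02%, 0.402% and 0.892% in TLE 1, 2 and 3. TLE 2 lay below 2 Control libraries again. The difference in means was 0.410 percentage points (two-sided exact permutation test, p = 0.3). This test cannot give a p below 0.1 with 3 libraries against 3.

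Of the 4 circles of the locus, 3 passed the filter of a value above 0 in at least 3 libraries. Of the other minor circles, mmu_circ_0011087 gave a log2 fold change of -0.36 (SE 0.59; limma, unadjusted p = 0.556) on 5 reads in Control and 3 in TLE. The circle mmu_circ_0011084 had a value above 0 in 1 library and was not tested. The neighbour mmu_circ_0011086 had a log2 fold change of 0.92 (95% interval -0.0070 to 1.84; limma, unadjusted p = 0.0516), and of 0.74 after rescaling to the same total.

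**Figure D5:**
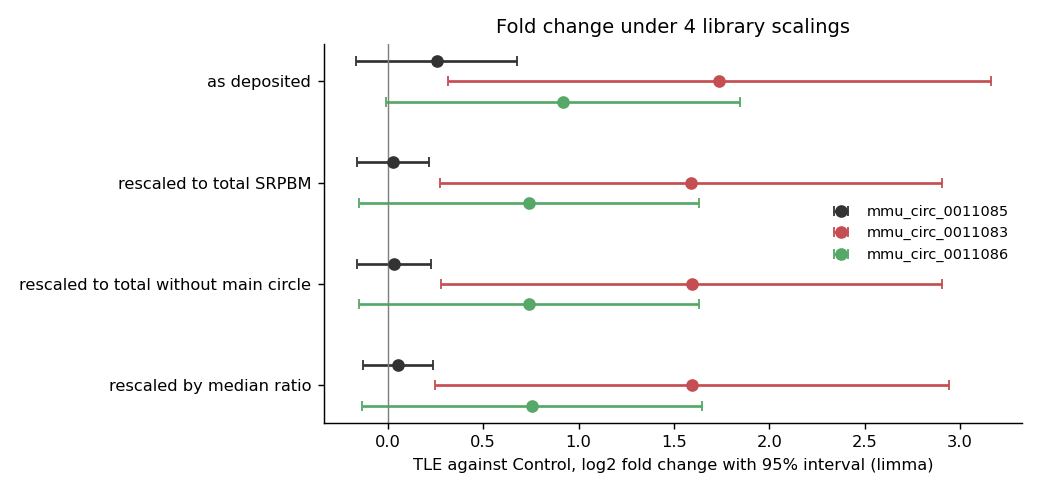
Points are log2 fold changes of TLE against Control with 95% limma intervals for the main circle (black), the second circle (red) and the neighbour mmu_circ_0011086 (green), under 4 scalings of the libraries. The main circle moves from 0.26 as deposited to between 0.029 and 0.052 after rescaling and its intervals include 0 throughout, and the second circle stays between 1.59 and 1.74 with the 0 of Control 2 included.

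Other genes of the Cdr1as network gave few circles. The list of 23 names covered Cyrano, the Argonaute and Tnrc6 silencing proteins, genes of microRNA maturation and turnover, host genes of miR-7 and miR-671, targets of miR-7, and Cdr1os itself, whose circles are listed without a host and so are not counted under it. By the host given in the table, 6 of these names had a circle (Ago4, Tnrc6a, Tnrc6b, Tnrc6c, Drosha and Xpo5). These gave 19 circles, of which 5 were tested and 0 were called (limma; 0 of the 5 at an unadjusted p under 0.05), beside 1.57% of all circRNAs called. The highest was mmu_circ_0000615 of Tnrc6c, a scaffold protein of miRNA silencing, with 120, 112 and 94.7 SRPBM in Control and 31.0, 105 and 86.5 SRPBM in TLE. Its log2 fold change was -0.56 (SE 0.43; limma, unadjusted p = 0.206), and TLE 2 lay within the Control range. The others were mmu_circ_0002985 and mmu_circ_0002986 of Tnrc6b, mmu_circ_0000617 of Tnrc6c and mmu_circ_0002735 of Drosha, the nuclear enzyme that cuts primary microRNA transcripts, with means of 12.5 to 28.1 SRPBM. None of these was above 0 in every library, so their fold changes rest heavily on values of 0. For mmu_circ_0002985 the log2 fold change in limma was 0.51, although its mean was 28.5 SRPBM in Control and 27.7 SRPBM in TLE. The median log2 fold change of the 5 was -0.51, beside 0.17 over all 4271 circRNAs tested, and with no filter on low values it turned to 0.34 over all 19, beside 0.18 over 11171.

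The circles whose profile over the 6 libraries was most like that of the main circle were sought among 376 circles above 0 in every library with a mean among the highest 400. Likeness was the root mean square difference of log2(SRPBM + 17.1) values centred on each circle's mean, and its median over these circles was 0.29. The nearest was mmu_circ_0008150 of Ankib1, at 0.035, with 1863, 1720 and 1800 SRPBM in Control and 1849, 2052 and 2336 SRPBM in TLE. Next came mmu_circ_0000463 without a listed host at 0.058, and circles of Ralgps1 at 0.069, Crebrf at 0.090 and Kcnn2 at 0.092. All 5 circles had their highest level in TLE 3, the library with the highest summed SRPBM, and the likeness is given as a description over libraries that the circles share.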

How the data were processed

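Ribosomal RNA was removed from total RNA before directional libraries were made. The authors called circRNAs with CIRI from BWA-MEM alignments, using paired chiastic clipping and GT-AG splice signals, and deposited 1 table of SRPBM values, a normalized signal of back-splice junction reads scaled to mapped reads. The build is mm10 by the submitters' processing notes. The 6 deposited copies of the table were identical, and 1 was used.

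Every value was a whole multiple (within 0.001) of a step per library, taken as 1 junction read. This served to describe depth, shares with their 95% Wilson intervals, and the floor of 3 reads. All other figures given in reads, the counting errors and the comparison of libraries with sampling noise rest on it too. Groups were compared with limma 3.58.1 (lmFit, eBayes with trend, two-sided, R 4.3.3) on log2(SRPBM + 17.1), the smallest value above 0, over the 4271 circRNAs above 0 in at least 3 libraries. The threshold was a log2 fold change of 1.5 with an unadjusted p under 0.05. Shares were compared with the exact permutation test over libraries. The limma step was tested on simulated data. Each library came from its own mouse, and no pair of libraries of the same group agreed within sampling noise.

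Circles were placed on GENCODE M21 exons, and matches were counted around the closed circle, overlaps included, on the sequence between the ends. Named circRNAs were those of the locus, the network hosts, the 5 next by mean, the 3 next on the X chromosome and the 5 most alike. The members and lists were chosen with earlier results of these data known. Alternatives comprised pseudocount, filter, scaling, variance trend, replicate block and leaving out each library.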

Additional observations from a re-analysis of the deposited data

How the results depend on the processing

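For the main circle, 15 of 15 alternatives to the fit as deposited, rescaled libraries included, kept a positive log2 fold change. It ranged from 0.029, after rescaling to the same total, to 0.34, so the threshold of 1.5 was never near. The p of the main circle depended on the circles that share the variance trend. At an unchanged difference of 0.26, the limma unadjusted p was 1.66e-06 with no filter, 0.0394 with only circRNAs above 0 in all 6 libraries and 0.540 without the trend. Leaving out each library gave 0.15 to 0.34 as deposited (without TLE 1, limma unadjusted p = 0.0496) and -0.029 to 0.060 after rescaling to the same total. The share difference ranged from -0.176 to 0.371 percentage points in that way, turning negative without Control 3 or TLE 1, and was 0.432 over circRNAs above 0 in all 6 libraries.

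The call of the second circle was lost with a pseudocount of 1 SRPBM (log2 fold change 3.10, limma unadjusted p = 0.109) and without the trend (1.74, unadjusted p = 0.0778). Leaving out each library gave 0.60 (without Control 2) to 2.39, and the call was also lost without TLE 3 (1.49, limma unadjusted p = 0.0651). Its share of the locus kept its sign in 6 of 6 such alternatives, 0.230 to 0.595 percentage points. With no filter, 0 of the 19 network circles were called.

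The labels do not say whether the replicate numbers pair the mice. Deviations of same-numbered libraries correlated at 0.019, 0.014 and 0.010, which cannot decide it, since counting noise also lowers a correlation. With a replicate block, the log2 fold change was 0.26 (limma unadjusted p = 0.150) for the main circle, 0.029 (unadjusted p = 0.652) after rescaling and 1.74 (unadjusted p = 0.000742) for the second circle. Sign flips within pairs for the share gave 0.183 percentage points (exact p = 0.5), where 0.25 is the smallest p that 3 pairs allow. Depth limits the minor circles: 2 of them rest on 8 and 2 reads in all.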
